A study of Mus musculus with 3 samples.

Results

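The mouse CXC chemokines that signal through the receptor CXCR2, and the gene for CXCR2 itself, were followed across the cell types of the calvaria, the flat bone of the skull roof. The members were found by gene symbol: Cxcl1, Cxcl2, Cxcl3, Cxcl5, Ppbp and Cxcr2, each present once, make 6 of the 31053 genes counted. CXCR2 is a G protein-coupled receptor carried mainly by neutrophils, and its ligands share a glutamate-leucine-arginine (ELR) motif near the amino end. Gradients of these ligands draw neutrophils out of the bone marrow and into inflamed tissue. In many cells their genes are switched on by interleukin-1, TNF or IL-17 through the transcription factor NF-kB, and the messages are short-lived.

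The data were single-cell RNA counts from 3 libraries of C57BL/6 mice aged 8 weeks, 1 library per group. In the scratch-positive (invasive) group, a needle had scratched off the periosteum, the layer of connective tissue and bone-forming cells over the bone, and HNM007 cells, a mouse squamous carcinoma line, were placed on the calvaria. In the scratch-negative (pre-invasive) group the same cells were placed on calvaria that had not been scratched. In both, the tumour was excised 1 week after implantation and the calvarial tissue was dissociated. The control group was calvaria of tumour-free mice. In each group live CD45-positive (blood-lineage) and CD45-negative cells were mixed 1:1, so that the balance of cell types was set in part by the mixing. No group had scratched bone without tumour, so the effects of scratching, of a missing periosteum and of invasion cannot be told apart. Nor do the labels say how many mice went into a library.

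The files held 9504 barcodes in the scratch-positive, 8517 in the scratch-negative and 7490 in the control library, with 395654008, 167623741 and 100089008 unique molecular identifiers (UMIs, each standing for 1 captured RNA molecule) in that order. After filtering, 8423, 7585 and 6182 cells were kept, with a median of 36176, 11247 and 8876 UMIs. Between 16 and 30 barcodes were shared by any pair of libraries. Cells were clustered without the 6 genes and clusters were named by likeness to marker lists. No endothelial class was found, and 44 cells of the scratch-positive library stayed unnamed. Levels are given as counts per 1000000 (CPM), the UMIs of a gene per 1000000 UMIs of all genes in a class or library. With 1 library per group there is no replicate spread: ranges in brackets are exact 95% Poisson or conditional binomial intervals that cover counting error only, and no test was run. A ratio between libraries was called a difference where it was at least 2-fold and its whole interval lay on the same side of 1, with at least 10 UMIs in the pair of libraries and at least 50 cells in each. These calls compare libraries and not conditions.

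All 5 ligand genes lie in 1 cluster on chromosome 5 (GRCm38, GENCODE M21, plus strand). In order of coordinate they were Cxcl5 (ENSMUSG00000029371, chr5:90759360-90761624), Ppbp (ENSMUSG00000029372, chr5:90768518-90770063), Cxcl3 (ENSMUSG00000029379, chr5:90786103-90789600), Cxcl1 (ENSMUSG00000029380, chr5:90891241-90893115) and Cxcl2 (ENSMUSG00000058427, chr5:90903871-90905938), within 146.579 kb. Pf4, for a platelet chemokine that does not carry the ELR motif, and Cxcl15 lie among them. Cxcr2 is on chromosome 1 (ENSMUSG00000026180, chr1:74153989-74161246). The coding parts of Cxcl1, Cxcl2 and Cxcl3 are close paralogs, and how reads matching more than 1 of them were counted is not given in the sources used here, so their counts are uncertain to that extent.

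The stretch just before the start site is shown for the ligand genes with an entry in the RefSeq promoter table and for Cxcr2, 5 of the 6 members, because Cxcl1, Cxcl2 and Cxcl3 share letters there that Ppbp and Cxcr2 lack. Each line gives 110 bases of sequence before the RefSeq start (GRCm38.p6, plus strand, 5′ to 3′). Capitals mark matches to the wide form of the kappaB element that NF-kB binds (GGG, any bases at the next pair of positions, then TTTCC), to its narrow form (GGGA, any base, then TTTCC), or to the TATA box TATAAA.
Cxcl1 (chr5:90891135-90891244): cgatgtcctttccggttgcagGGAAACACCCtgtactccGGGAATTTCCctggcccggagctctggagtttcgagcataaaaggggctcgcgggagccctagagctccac
Cxcl2 (chr5:90903789-90903898): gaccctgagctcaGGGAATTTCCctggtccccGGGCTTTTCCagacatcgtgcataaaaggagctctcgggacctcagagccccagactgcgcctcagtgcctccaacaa
Cxcl3 (chr5:90785991-90786100): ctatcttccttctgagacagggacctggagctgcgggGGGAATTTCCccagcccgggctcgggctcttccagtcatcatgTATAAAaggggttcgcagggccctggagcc
Ppbp (chr5:90768408-90768517): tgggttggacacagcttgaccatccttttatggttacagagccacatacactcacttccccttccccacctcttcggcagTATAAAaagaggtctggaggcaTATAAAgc
Cxcr2 (chr1:74153884-74153993): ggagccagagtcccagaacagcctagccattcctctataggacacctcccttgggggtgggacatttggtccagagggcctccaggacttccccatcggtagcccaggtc

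The letters GGGAATTTCC stood at -71 to -62 from the RefSeq start in Cxcl1, at -97 to -88 in Cxcl2 and at -73 to -64 in Cxcl3. For Cxcl2 the RefSeq window ends at 90903898, past the GENCODE gene start of 90903871. Its offset from the other genes therefore depends on the annotation. The windows of Cxcl1 and Cxcr2 also pass the GENCODE start, by a few bases. Both strands of the 250 bases before the start were searched, and 0.356% of 32851 promoters in the table held a match to the narrow form there. A further match to the wider form, which includes every match to the narrow one and occurred in 1.41% of promoters, lay at -89 to -80 on the minus strand in Cxcl1 and at -78 to -69 in Cxcl2. Neither form was in the windows of Ppbp or Cxcr2. TATAAA, in 12.4% of promoters, was found in Cxcl3 at -30 and in Ppbp at -30 and -8. The AP-1 element TGANTCA, in 6.75% of promoters, matched in Ppbp alone, at -204, outside the bases shown. A match is a description of the letters and says nothing of binding in these cells.

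Over whole libraries, Cxcl1 stood at 281 CPM in scratch-positive, 276 in scratch-negative and 4.58 in control calvaria. Cxcl2 stood at 659, 1181 and 107 CPM in the same order, and Cxcl3 at 57.6, 93.5 and 1.78 CPM. Cxcl5 stood at 80.4, 121 and 0.342 CPM, and Ppbp, the gene for platelet basic protein and its cleavage product NAP-2, at 15.2, 3.36 and 0.253 CPM. Each ligand was thus higher in both tumour libraries than in control. The receptor gene Cxcr2 was instead lowest in scratch-positive, at 15.3, 95.2 and 98.1 CPM. Because the libraries held very different mixtures of cells, the classes were taken apart. Fewer cells of a type and less RNA per cell cannot be told apart in these sums.

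The cells that carried the ligands formed distinct groups. Carcinoma-like cells held 83.0% of Cxcl1 UMIs in the scratch-positive library and 22.1% in the scratch-negative one. Fibroblast/periosteal-like cells held 13.3% in scratch-positive, 71.0% in scratch-negative and 7.45% in control. In control calvaria, 82.0% of the few Cxcl1 UMIs lay in marrow stromal-like cells. Most Cxcl1 UMIs thus lay in carcinoma-like or stromal cells in all 3 libraries. Cxcl5 was divided in the same manner, with 89.3% of UMIs in carcinoma-like cells in scratch-positive, 66.2% in fibroblast-like cells in scratch-negative and 93.5% in marrow stromal-like cells in control. For Cxcl2, neutrophil-like cells held 44.1% of UMIs in scratch-positive, 67.5% in scratch-negative and 85% in control, and monocyte/macrophage-like cells held 45.5%, 23.1% and 9.21%. Cxcl3 followed Cxcl2, with 39.0%, 66.1% and 87.7% of UMIs in neutrophil-like cells. Ppbp lay with the carcinoma-like cells, which held 96.0% of its UMIs in scratch-positive and 77.9% in scratch-negative. Its control library had only 23 UMIs in kept cells.

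**Figure D1:**
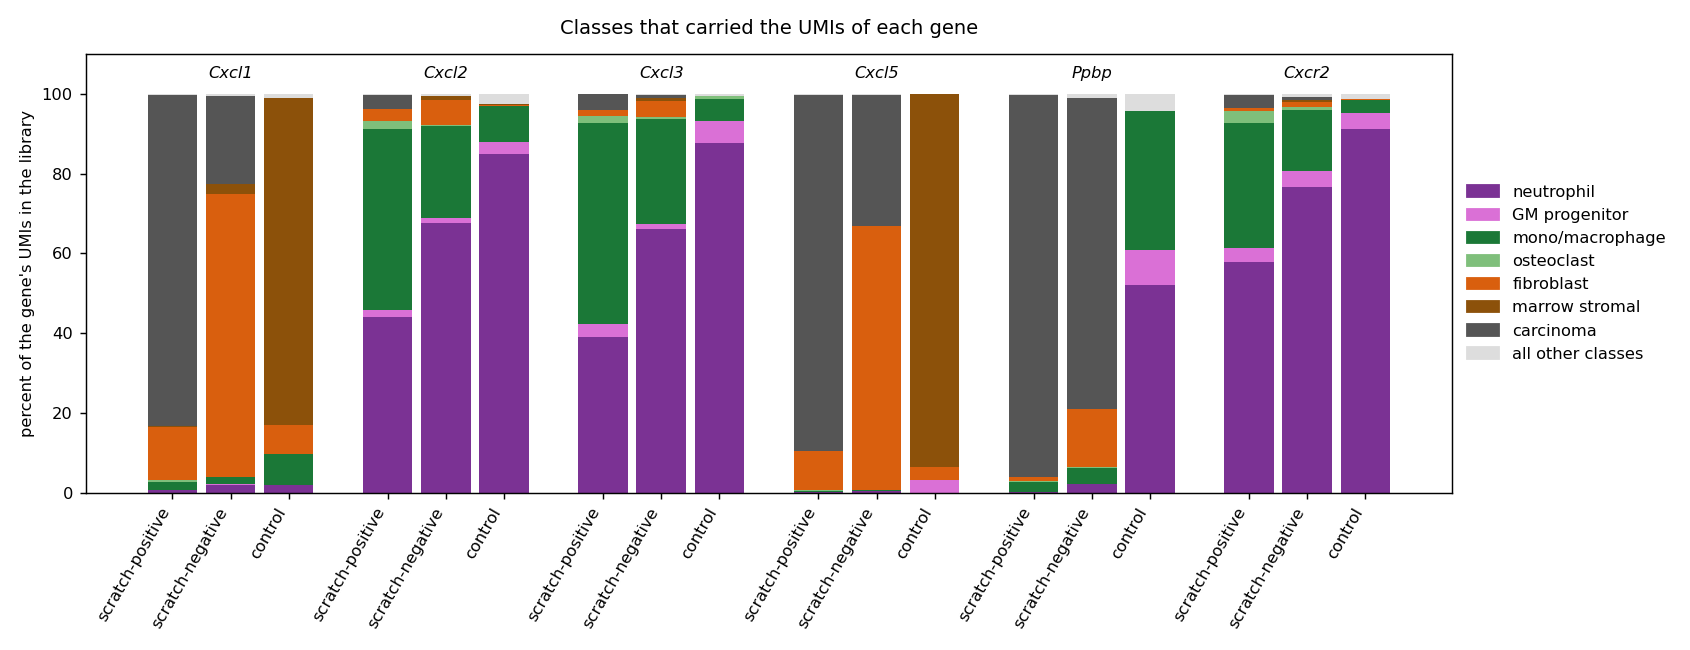
Stacked bars of the share of each gene's UMIs (percent of its UMIs in all kept cells of a library) that lay in each class, for the scratch-positive, scratch-negative and control libraries; classes are named by likeness to marker lists. In the tumour libraries Cxcl1, Cxcl5 and Ppbp lay mainly in carcinoma-like and fibroblast-like cells, and in all 3 Cxcl2, Cxcl3 and Cxcr2 lay mainly in neutrophil-like and monocyte/macrophage-like cells.

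RNA free in the cell suspension was gauged from erythroid and B-lineage cells, which should lack these chemokines. In them Cxcl2 stood at 19.6 CPM in scratch-positive, 48.0 in scratch-negative and 14.4 in control, from 52, 392 and 548 cells with median depths of 9975.5, 30723.5 and 18291 UMIs. The control level was carried by a few B-lineage cells rich in neutrophil markers: the 232 of 244 control B-lineage cells with under 5% of such UMIs held 9 of the 152 Cxcl2 UMIs, at 2.94 CPM, and control erythroid cells so restricted had 4.89 CPM. Cxcl1 stood there at 7.06 and 14.6 CPM in the tumour libraries, with 0 UMIs in control, and Cxcr2 at 5.49, 8.03 and 6.01 CPM in scratch-positive, scratch-negative and control. Levels near these are read as background.

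**Figure D2:**
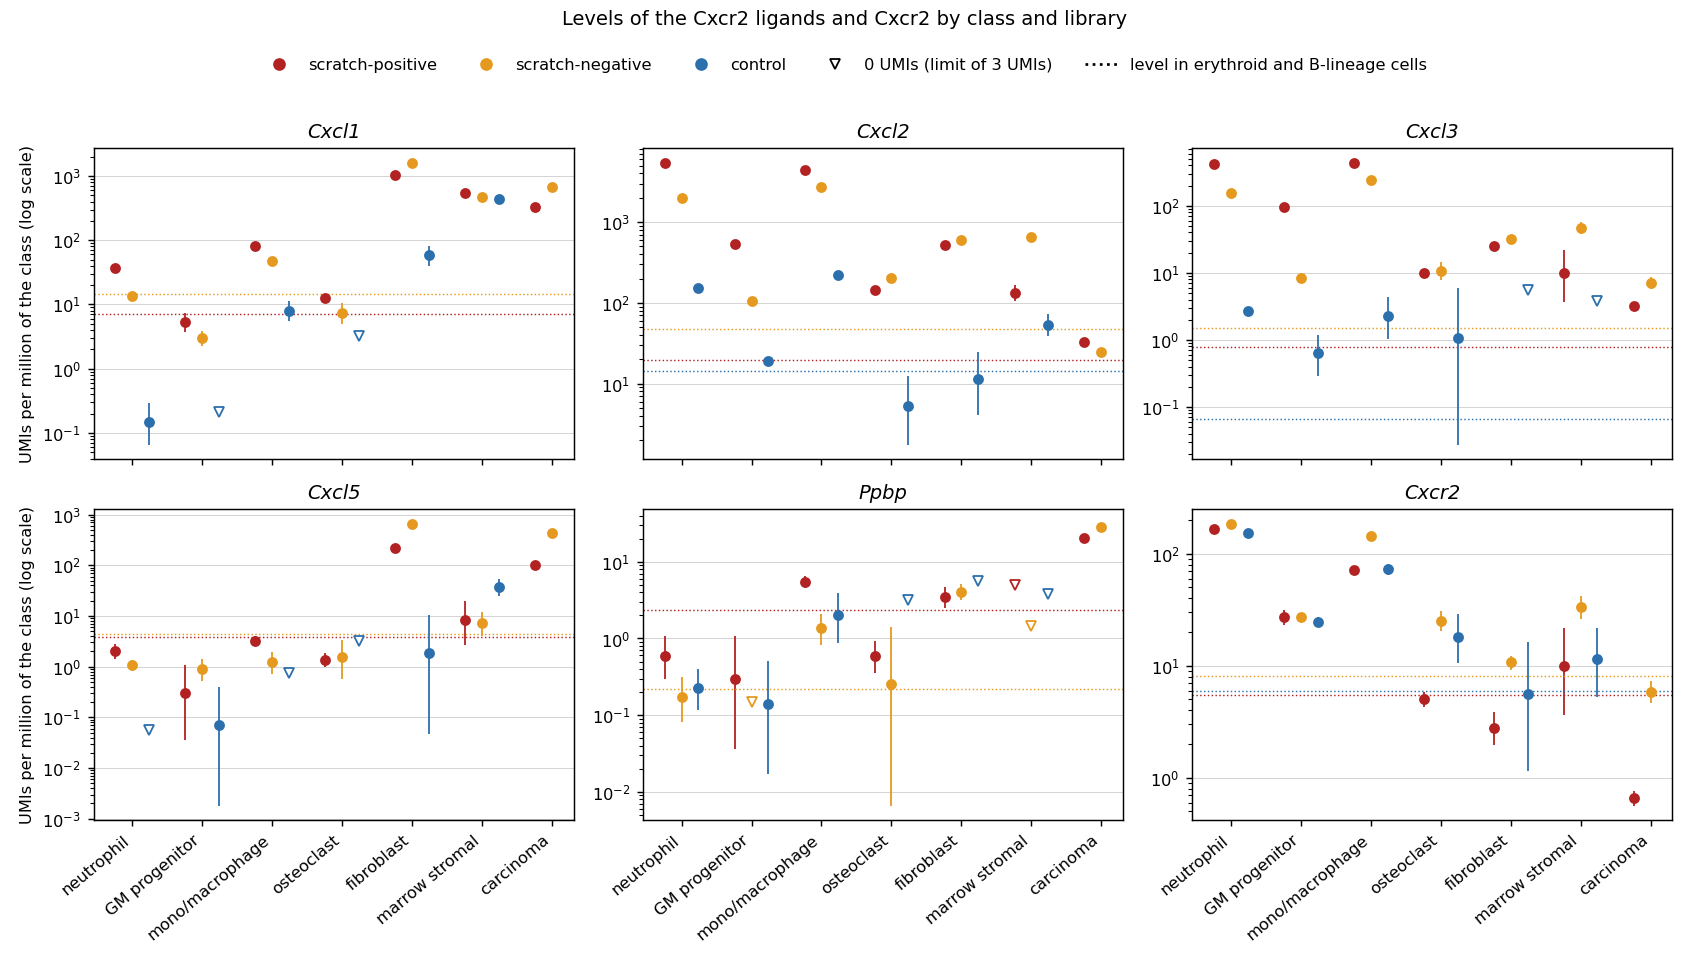
Level of each gene (CPM, log axis) in 7 classes, named by likeness, with points for the scratch-positive, scratch-negative and control libraries, bars for 95% Poisson intervals (counting error only), open triangles for the limit of 3 UMIs where none was counted and dotted lines for the level in erythroid and B-lineage cells. Control points of Cxcl2 and Cxcl3 lie below both tumour libraries in neutrophil-like and monocyte/macrophage-like cells, while those of Cxcr2 in neutrophil-like cells lie close to them.

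Cxcl2, which encodes MIP-2, a major neutrophil attractant made by macrophages and neutrophils, was highest in the myeloid classes. In neutrophil-like cells it stood at 5425 CPM in scratch-positive, 1997 in scratch-negative and 155 in control calvaria, over 2012, 4840 and 4485 cells. The ratio was 35.1 (34.3 to 35.9) for scratch-positive over control, 12.9 (12.6 to 13.2) for scratch-negative over control and 2.72 (2.69 to 2.74) for scratch-positive over scratch-negative. The counting intervals of the 3 levels did not overlap. With every cell thinned to 3000 UMIs, 34.5%, 30.5% and 16.7% of neutrophil-like cells had a Cxcl2 UMI in scratch-positive, scratch-negative and control, against 56.9%, 51.5% and 24.5% before thinning. The share of cells thus differed much less than the level, before thinning as well as after. Thinning left out cells under 3000 UMIs. Neutrophil-like cluster 10, which held most of the class's Cxcl2 UMIs in the tumour libraries, had a median of 2740. The thinned shares therefore leave out many cells that carried the level. In erythroid and B-lineage cells the unthinned shares were 34.6%, 35.5% and 7.30%.

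In monocyte/macrophage-like cells Cxcl2 stood at 4467 CPM in scratch-positive (891 cells), 2698 in scratch-negative (652 cells) and 224 in control (334 cells). It was 19.9-fold (18.7 to 21.3) higher in scratch-positive and 12.0-fold (11.3 to 12.9) higher in scratch-negative than in control. The ratio between the tumour libraries, 1.66 (1.64 to 1.68), was under 2-fold. At 3000 UMIs, 70.4%, 48.1% and 10.8% of these cells had a Cxcl2 UMI in scratch-positive, scratch-negative and control. The class was not made of the same cells in each library: the C1q-led cluster 12 held 93.8% of it in scratch-positive, 79.1% in scratch-negative and 12.0% in control, where the Ccr2-bearing monocyte cluster 13 held 88.0%. Within cluster 12 alone, admitted with 40 control cells after the data were seen, Cxcl2 was 11.6-fold higher in scratch-positive and 7.48-fold higher in scratch-negative than in control. Within cluster 13 the ratios to control were 2.10 and 1.09. The 2 clusters thus gave different ratios, and their difference was not tested.

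Cxcl3, also a neutrophil attractant, moved with Cxcl2 and by larger ratios. In neutrophil-like cells it stood at 420 CPM in scratch-positive, 155 in scratch-negative and 2.67 in control, 157-fold (133 to 187) and 58.0-fold (49.1 to 69.0) above control. Monocyte/macrophage-like cells had 433, 245 and 2.26 CPM, the last from 9 UMIs, 191-fold (101 to 419) and 108-fold (57.0 to 237) above control. The number of Cxcl3 UMIs per Cxcl2 UMI, a ratio that library depth does not set, was 0.0774 in scratch-positive, 0.0776 in scratch-negative and 0.0173 in control neutrophil-like cells. For monocyte/macrophage-like cells it was 0.0970, 0.0909 and 0.0101. Tumour libraries therefore held more Cxcl3 relative to Cxcl2 than control did in both classes, while the tumour libraries lay close to each other.

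Detection of the pair coincided in single cells, among those with at least 3000 UMIs. At 3000 UMIs, Cxcl3 was detected in 25.5% of scratch-positive neutrophil-like cells with a Cxcl2 UMI and in 0.662% of those without one. The shares were 19.5% and 1.44% in scratch-negative and 2.43% and 0.459% in control. Among monocyte/macrophage-like cells, 38.8% of scratch-positive cells with Cxcl2 had Cxcl3, against 4.28% of those without.

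Of the 18 combinations of gene and class that could be compared between scratch-positive and control, 15 were higher in scratch-positive and 0 lower. Of the 15, 10 stood above the free RNA level, by an interval clear of it and at least 3 times its size. In neutrophil-like cells 5 of the 6 genes were called higher, all ligands, where 11.6% of all genes tested in that class were higher by the same rule and 3.62% lower. Of these 5, Cxcl5 at 2.0 CPM and Ppbp at 0.596 CPM lay below the free RNA levels of 3.92 and 2.35 CPM, and the Ppbp call, from 11 UMIs in scratch-positive and 12 in control, was lost under 7 of 13 alternatives. Monocyte/macrophage-like cells also had 5 of 6 higher, where 13.5% of all genes were higher and 7.81% lower, and there too Cxcl5 and Ppbp, at 3.20 and 5.40 CPM, were not clear of the free RNA level. Granulocyte-monocyte progenitor-like cells had 3 genes higher, where 3.99% of all genes were higher and 4.43% lower. Of these 3, Cxcl1, from 36 UMIs in scratch-positive and 0 in control, lay below the free RNA level of 7.06 CPM. NK-like cells had 2 genes higher, where 4.07% were higher and 3.06% lower. Cxcr2 was called in none of these 4 classes.

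For scratch-negative over control, 36 combinations over 8 classes could be compared, of which 23 were higher, 10 of them above the free RNA level, and 1 lower. Neutrophil-like cells had 4 genes higher, where 5.17% of all genes tested were higher and 1.79% lower, and monocyte/macrophage-like cells 3, where 5.02% were higher and 5.77% lower. Progenitor-like cells had 4 higher (2.02% of all genes higher, 2.63% lower). Cxcl1 and Cxcl5 were among the calls in neutrophil-like cells, at 13.4 and 1.07 CPM, and in progenitor-like cells, at 2.99 and 0.883 CPM, all below the free RNA levels of 14.6 and 4.48 CPM. Marrow stromal-like cells had 3 higher and 1 lower (5.75% of all genes higher, 7.20% lower).

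In lymphoid and erythroid cells the calls lay on low levels. There were 2 genes higher in NK-like cells (2.10% of all genes higher, 2.37% lower), 2 in T-like cells (3.45% higher, 3.13% lower), 1 in B-lineage cells (1.12% higher, 2.39% lower) and 4 in erythroid cells (3.33% higher, 1.15% lower). Cxcl2, for one, stood at 50.7 CPM in scratch-negative and 5.76 CPM in control erythroid cells. Of the calls in T-like cells, Cxcl3 at 33.9 CPM in scratch-negative, from 17 UMIs against 0 in control, stood above the free RNA level, though 1 cell held 94.1% of them. Erythroid and B-lineage cells gave the free RNA measure, so calls there are read as background.

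For scratch-positive over scratch-negative, 37 combinations over 7 classes gave 8 higher and 8 lower, of which 5 and 6 stood above the free RNA level. Among the 6 were Cxcr2 in monocyte/macrophage-like and in osteoclast-like cells. In cells with under 5% of neutrophil-marker UMIs, an alternative added after the data were seen, these ratios were 1.29 and 0.750, neither called. Higher calls lay in neutrophil-like cells (4 genes, with 8.99% of all genes higher and 1.15% lower), progenitor-like cells (2 genes, with 3.68% higher and 1.93% lower) and monocyte/macrophage-like cells (2 genes, with 15.6% higher and 5.41% lower), the last of which also had 1 gene lower. Lower calls lay otherwise in carcinoma-like cells (4 genes, with 1.23% of all genes higher and 9.21% lower), fibroblast-like cells (2 genes, with 4.61% higher and 11% lower) and osteoclast-like cells (1 gene, with 3.54% higher and 6.44% lower). NK-like cells had none, where 3.21% of all genes were higher and 2.07% lower.

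**Figure D3:**
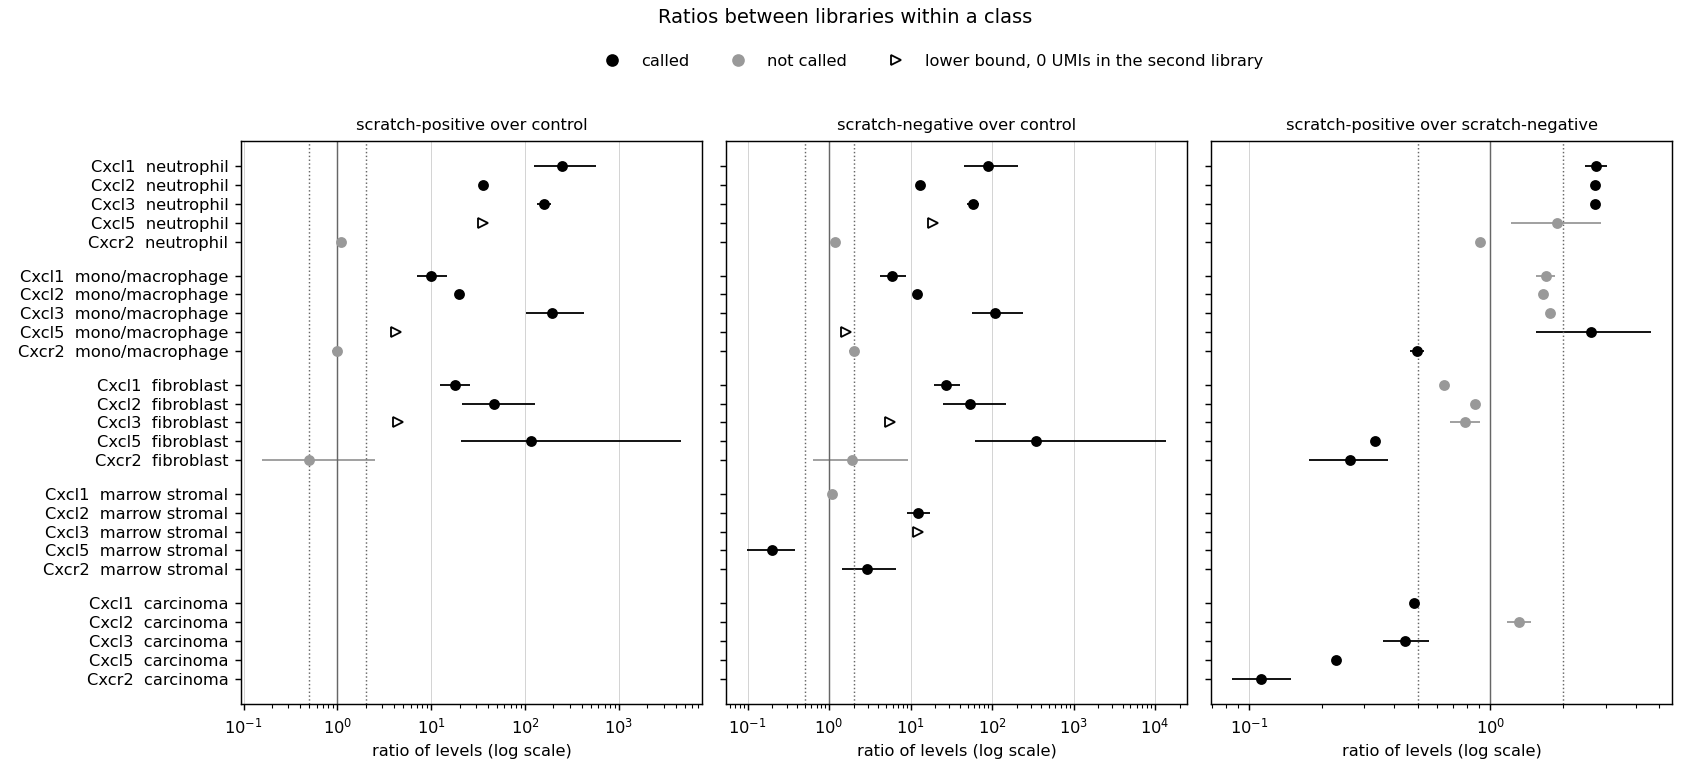
Ratios of CPM (log axis) for scratch-positive over control, scratch-negative over control and scratch-positive over scratch-negative, with 95% counting intervals, for 5 genes in 5 classes named by likeness; black points were called, grey points were not and open triangles are bounds against 3 UMIs. Ligand ratios over control reach 349 while those of Cxcr2 in neutrophil-like cells lie at 1.09 and 1.20, and the fibroblast ratios over control rest on 48 control cells.

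Within the neutrophil-like class the level of Cxcl2 differed widely between clusters. Cxcl2 and Cxcl3 are themselves among the leading genes of cluster 10, although they were left out of the clustering, so their height there is a description and not a result. Cluster 10, led by Ccl3, Ccl4 and Il1a and with a median of 2740 UMIs a cell, held 23.3% of neutrophil-like cells in scratch-positive, 13.4% in scratch-negative and 3.97% in control. It held 76.3%, 69.2% and 25.9% of the class's Cxcl2 UMIs in the same order, and 81.7%, 72.7% and 23.2% of its Cxcl3 UMIs. In it Cxcl2 stood at 50054 CPM in scratch-positive, 29732 in scratch-negative and 3088 in control. The cluster led by Ccl3, Ccl4 and Il1a held 178 control cells here and 115 under a stricter mitochondrial limit. It held 21 control cells without doublet removal and 8 with the member genes used in clustering. Its scratch-positive cells numbered 469, 528, 415 and 445 in the same order, and its scratch-negative cells 649, 588, 422 and 412. Whether its control cells are of the same kind as its tumour-library cells was not tested. Cxcl2 in cluster 10 was 16.2-fold (15.5 to 16.9) higher in scratch-positive and 9.63-fold (9.22 to 10.1) higher in scratch-negative than in control.

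Other neutrophil-like clusters showed the same direction. In cluster 17, late neutrophil-like cells led by Stfa2l1 and Ccl6, Cxcl2 stood at 3846 CPM in scratch-positive, 1653 in scratch-negative and 423 in control. In cluster 15, led by Fpr1, it stood at 8626, 5778 and 629 CPM, and in cluster 9, led by Mmp8, at 640, 219 and 102 CPM. In cluster 7, immature cells with Camp and Lcn2, it stood near the free RNA level, at 21.8, 18.7 and 6.95 CPM. Cluster 8 held 16.7%, 18.1% and 17.4% of the class's UMIs but 0.150%, 0.445% and 1.81% of its Cxcl2 UMIs. Its level was thus near that of free RNA in scratch-negative and control. The ratios of clusters 7 and 8 therefore rest in part on levels near free RNA. The ratio of scratch-positive to control ran from 3.02 in cluster 8 and 3.14 in cluster 7 to 16.2 in cluster 10. Between the tumour libraries the ratio was 2.92 in cluster 9, 2.33 in cluster 17, 2.04 in cluster 14, 1.68 in cluster 10, 1.49 in cluster 15, 1.16 in cluster 7 and 0.990 in cluster 8. It thus exceeded the class-wide 2.72 in cluster 9 and fell short of it in the other 6 clusters with at least 50 cells in both libraries. With each cluster weighted equally, the log2 ratio of Cxcl2 between the tumour libraries was 0.76, under the 2-fold rule.

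**Figure D4:**
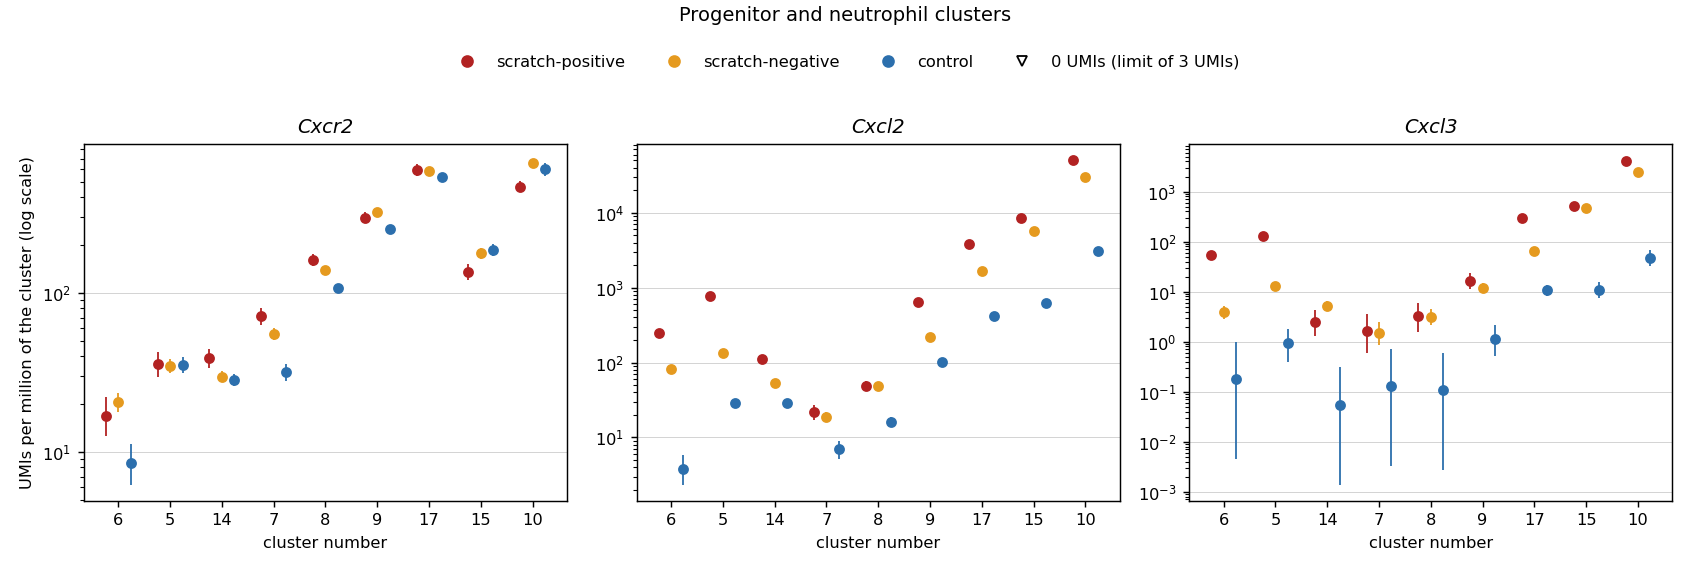
Levels of Cxcr2, Cxcl2 and Cxcl3 (CPM, log axis) in progenitor-like and neutrophil-like clusters for the scratch-positive, scratch-negative and control libraries, with 95% Poisson intervals. Cxcr2 is high in the late clusters of every library and reaches 594 CPM in scratch-positive and 533 CPM in control cells of cluster 17, while Cxcl2 is lower in control than in either tumour library in each cluster shown.

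Progenitor-like cells, which make neutrophils and monocytes in the marrow, also had more of both genes. Cxcl2 stood there at 533 CPM in scratch-positive, 107 in scratch-negative and 19.1 in control, over 202, 466 and 314 cells. The ratio was 27.9 (24.6 to 31.7) for scratch-positive over control and 4.99 (4.73 to 5.27) for scratch-positive over scratch-negative. Cxcl3 stood at 96.0, 8.24 and 0.632 CPM, the last from 9 UMIs. Without doublet removal the ratio of Cxcl2 between the tumour libraries fell to 1.73, under the 2-fold rule. That of Cxcl3 fell to 2.02, against 11.6 as counted here. The class then held other cells as well: a histone-led cluster of 1720 cells took the progenitor name. The histone-led cluster of 1559 cells is named neutrophil here. The parts of doublets and of naming in these falls were not tested. Over 13 alternatives Cxcl2 in scratch-positive over control stayed between 21.0 and 43.2. Markers of neutrophils, 18 genes all detected here, summed to 289180, 306956 and 330983 CPM in the progenitor-like cells as counted here.

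Cxcl1, known as KC, is made by fibroblasts, epithelium and macrophages under inflammatory cytokines. It was highest in fibroblast/periosteal-like cells of both tumour libraries, at 1028 CPM in scratch-positive and 1600 in scratch-negative, against 58.1 CPM from 31 UMIs in control. Because the control library had only 48 such cells, below the minimum of 50, the ratios of 17.7 (12.5 to 26.0) and 27.5 (19.4 to 40.5) to control were added with a minimum of 40 after the data were seen. With that minimum, 4 of the 6 genes were called higher in each tumour library, Cxcl1, Cxcl2, Cxcl3 and Cxcl5. By the same rule 7.83% of all genes in the class were higher in scratch-positive (15.7% lower) and 5.21% in scratch-negative (12.0% lower). At 3000 UMIs, 61.4% of fibroblast-like cells in scratch-positive, 62.7% in scratch-negative and 19.6% in control had a Cxcl1 UMI. Between the tumour libraries the ratio was 0.643 (0.629 to 0.656), lower in scratch-positive by less than 2-fold. Cxcl2 in the same cells stood at 521 CPM in scratch-positive, 606 in scratch-negative and 11.3 in control, the last from 6 UMIs, with ratios to control of 46.3 (21.3 to 126) and 53.9 (24.7 to 147).

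Fibroblast-like cells were of 2 clusters. Cluster 24 held all 48 control cells, 115 scratch-positive cells and 198 scratch-negative cells, and cluster 16 held only cells of the tumour libraries, 307 in scratch-positive and 358 in scratch-negative. Within cluster 24 Cxcl1 stood at 1016 CPM in scratch-positive, 999 in scratch-negative and 58.1 in control. Its ratios to control were 17.5 and 17.2, so the excess over control was present in the cluster that all 3 libraries shared. Cxcl2 stood in cluster 24 at 357, 191 and 11.3 CPM, and its ratios to control there were 31.8 (14.5 to 86.8) and 17 (7.76 to 46.4), the second well under the 53.9 of the whole class. Cxcl3 had 6 UMIs in scratch-positive, 33 in scratch-negative and 0 in control cells of cluster 24 and was not called there for either tumour library. In cluster 16 Cxcl1 stood at 1031 CPM in scratch-positive and 1737 in scratch-negative.

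Marrow stromal-like cells were the main source of Cxcl1 in control calvaria and did not differ by the 2-fold rule. This class, led also by the osteoblast genes Bglap and Ibsp, had 538 CPM in scratch-positive (33 cells), 473 in scratch-negative (169 cells) and 433 in control (79 cells). The ratio of scratch-negative to control was 1.09 (0.97 to 1.24). Scratch-positive had too few cells to be compared. Under a stricter mitochondrial limit the class held 15, 69 and 61 cells, so it was not the same cells under every setting. In the same cells Cxcl2 stood at 134, 655 and 53.3 CPM, and scratch-negative was 12.3-fold (9.04 to 17.1) above control, though 1 cell held 40.5% of the scratch-negative UMIs. Cxcl3 was at least 12.5-fold higher in scratch-negative than in control, which had 0 UMIs and was set at the limit of 3. In the scratch-negative class as a whole, 5.75% of genes were higher and 7.20% lower than in control. Neutrophil markers summed to 12731 CPM in scratch-positive, 116920 in scratch-negative and 22019 in control marrow stromal-like cells. Among cells with under 5% of UMIs from those markers, an alternative added after the data were seen, Cxcl2 stood at 123, 578 and 38.5 CPM and its ratio of scratch-negative to control was 15.

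In carcinoma-like cells, found in number only in the tumour libraries, Cxcl1 stood at 324 CPM in scratch-positive (3778 cells) and 668 in scratch-negative (202 cells), a ratio of 0.484 (0.474 to 0.495). The 2 such cells of the control library had 0 UMIs of every member. At 3000 UMIs, 32.0% of carcinoma-like cells had a Cxcl1 UMI in scratch-positive and 45.0% in scratch-negative, against 76.8% and 84.2% before thinning. The libraries differed in which clusters made up the class: cluster 3, led by interferon-induced GTPases, held 6.83% of it in scratch-positive and 60.4% in scratch-negative. Within cluster 3 Cxcl1 stood at 528 CPM in scratch-positive and 787 in scratch-negative, a ratio of 0.67. With each cluster weighted equally the log2 ratio was -0.55, and with Scrublet's own doublet threshold -0.97, both under the 2-fold rule. Carcinoma-like cells of the scratch-negative library also carried more neutrophil-marker RNA, 25706 CPM against 1220 in scratch-positive. In cells under 5% of such UMIs the 2 levels were 323 and 723 CPM.

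Myeloid cells carried Cxcl1 at lower levels. Monocyte/macrophage-like cells had 80.7 CPM in scratch-positive, 47.7 in scratch-negative and 8.05 in control, where 3 cells held all 32 UMIs and 1 of them 68.8%. The ratios to control, 10.0 (7.08 to 14.7) and 5.92 (4.16 to 8.73), therefore rest on few control cells. In cells with under 5% of neutrophil-marker UMIs Cxcl1 stood at 72.2, 20.6 and 9.88 CPM. The ratio of scratch-negative to control was then 2.08 (1.25 to 3.58), and that of scratch-positive to scratch-negative was 3.51 (2.67 to 4.70), past the rule that the whole class did not meet. With each cluster weighted equally the ratio to control was 2.42 in scratch-positive and 1.59 in scratch-negative, the second no longer called. Neutrophil-like cells had 36.8, 13.4 and 0.150 CPM, of which the scratch-negative level was no higher than that in erythroid and B-lineage cells. Osteoclast-like cells, the bone-resorbing class, had 12.6 CPM in scratch-positive and 7.46 in scratch-negative, and their Cxcl2 stood at 144 and 206 CPM. Neutrophil markers summed there to 6149 and 61231 CPM. In osteoclast-like cells under 5% of such UMIs, Cxcl2 stood at 101 and 96.1 CPM, a ratio of 1.05 (0.919 to 1.20).

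Cxcl5, the ligand LIX of stromal and epithelial cells, was lower in scratch-positive than in scratch-negative in both classes that carried most of it. In carcinoma-like cells it stood at 99.7 CPM in scratch-positive and 434 in scratch-negative, a ratio of 0.229 (0.223 to 0.236). In fibroblast-like cells it stood at 218 CPM in scratch-positive, 654 in scratch-negative and 1.88 in control, the last from 1 UMI. The ratio of scratch-positive to scratch-negative was 0.333 (0.320 to 0.348). Its size varied between clusters: the ratio was 0.50 in carcinoma cluster 3, 0.36 in cluster 1 and 0.29 in cluster 2, and 0.32 in fibroblast cluster 16. In fibroblast cluster 24, with 65.9 CPM in scratch-positive and 66.1 in scratch-negative, it was 1.00. At 3000 UMIs, 19.5% of carcinoma-like cells in scratch-positive and 46.1% in scratch-negative had a Cxcl5 UMI.

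Against control, Cxcl5 in fibroblast-like cells was 116-fold (20.9 to 4596) higher in scratch-positive and 349-fold (62.6 to 13781) higher in scratch-negative, with the same 48 control cells and a single UMI beneath both ratios. Within cluster 24, which held all of those control cells, the ratios were smaller, at 35.2 (6.22 to 1398) in scratch-positive and 35.2 (6.26 to 1398) in scratch-negative. The other tumour-library cells lay in cluster 16, where Cxcl5 stood at 252 CPM in scratch-positive and 788 in scratch-negative. The gene went the other way in marrow stromal-like cells. There it stood at 8.28 CPM in scratch-positive, 7.26 in scratch-negative and 36.8 in control, from 5, 15 and 29 UMIs. The ratio of scratch-negative to control was 0.197 (0.10 to 0.38), but in control 6 cells held all 29 UMIs and 1 of them 51.7%. With each cell given equal weight, the log2 ratio fell short of the 2-fold rule, at -0.58.

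Cxcl5 and Cxcl1 tended to be detected in the same cells. At 3000 UMIs, 31.2% of scratch-positive carcinoma-like cells with a Cxcl1 UMI had Cxcl5, against 14.1% of those without one. In scratch-negative 46 of 86 cells with Cxcl1 and 42 of 105 without it had Cxcl5. Among fibroblast-like cells the shares with and without Cxcl1 were 32.0% and 6.21% in scratch-positive and 49.3% and 14.6% in scratch-negative.

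Ppbp is a gene of megakaryocytes and platelets, yet in the tumour libraries its UMIs lay in the carcinoma-like cells, at 20.3 CPM in scratch-positive and 28.6 in scratch-negative. The ratio, 0.709 (0.638 to 0.788), was under 2-fold. At 3000 UMIs, 5.20% and 7.85% of carcinoma-like cells had a Ppbp UMI, and in the full counts 33.9% and 35.6% did. Its neighbour Pf4, the partner of Ppbp in platelets, stood at 1.69 CPM in scratch-positive and 0.825 in scratch-negative carcinoma-like cells. Of 3653 scratch-positive carcinoma-like cells, 189 had Ppbp without Pf4 and 1 had both. In monocyte/macrophage-like cells the pattern differed: Ppbp stood at 5.40 CPM in scratch-positive, 1.36 in scratch-negative and 2.01 in control, and all 12 scratch-positive cells with a Ppbp UMI also had Pf4, which 263 of 868 cells had. Pf4 stood at 856, 291 and 56.3 CPM in that class, and the part of platelet RNA in its Ppbp was not tested.

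The receptor gene Cxcr2 stood highest in neutrophil-like cells in every library. They held 57.9% of its UMIs in scratch-positive, 76.6% in scratch-negative and 91.2% in control, and monocyte/macrophage-like cells held 31.4%, 15.3% and 3.23%. Neutrophil-like cells had 166 CPM (160 to 172) in scratch-positive, 183 (179 to 186) in scratch-negative and 153 (149 to 156) in control. The ratios were 1.09 (1.04 to 1.13) and 1.20 (1.16 to 1.23) to control and 0.907 between the tumour libraries, all within 2-fold and each with an interval off 1. At 3000 UMIs, 39.7%, 44.2% and 41.2% of neutrophil-like cells had a Cxcr2 UMI. Against control, the lower whole-library level of scratch-positive was thus not matched by a lower level within the class, which made up 2012 of the 8423 kept cells there. Against scratch-negative, with whole-library levels of 15.3 CPM in scratch-positive and 95.2 in scratch-negative, the level within the class was lower as well, but by the ratio of 0.907 alone. In every library it stood higher in the late clusters than in progenitors: in cluster 6 the levels were 16.9 CPM in scratch-positive, 20.5 in scratch-negative and 8.48 in control, in cluster 8 they were 161, 139 and 107 CPM, and in cluster 17 they were 594, 589 and 533 CPM. Cluster 10 had 467, 653 and 600 CPM. In the progenitor-like and neutrophil-like clusters with at least 50 cells in both libraries, levels within a cluster stayed within 2-fold of each other, except in cluster 7, where scratch-positive had 71.5 CPM and control 31.7, a ratio of 2.26, and in cluster 6, where scratch-negative was 2.41-fold above control.

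Detection of receptor and ligand also coincided in neutrophil-like cells with at least 3000 UMIs. Over the class at 3000 UMIs, 50.4% of scratch-positive cells with a Cxcr2 UMI had Cxcl2, against 24% of those without one. The shares were 44.7% and 19.2% in scratch-negative and 24.6% and 11.2% in control. Inside cluster 17 the shares with and without Cxcr2 were 79.1% and 85.2% in scratch-positive, 57.9% and 53.5% in scratch-negative and 31.7% and 34.1% in control. With Cxcr2 the share was thus higher in scratch-negative and lower in scratch-positive and control, and the intervals of the 2 shares overlapped in each library.

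Monocyte/macrophage-like cells had Cxcr2 at 71.6 CPM in scratch-positive, 145 in scratch-negative and 72.4 in control. There the ratio of scratch-positive to scratch-negative was 0.495 (0.464 to 0.528), called lower, and that of scratch-negative to control was 2.0 (1.76 to 2.27), just short of a call. Neutrophil markers in this class moved with it: all 18 were detected and they summed to 131346 CPM in scratch-positive, 276812 in scratch-negative and 149278 in control. Per 10000 neutrophil-marker UMIs, neutrophil-like cells had 3.61, 3.52 and 2.99 Cxcr2 UMIs, and monocyte/macrophage-like cells had 5.45, 5.22 and 4.85. The neutrophil-like value averages unlike clusters. In scratch-positive, cluster 10 had 168145 CPM of these markers, with 8.27% of class UMIs and 23.3% of its Cxcr2 UMIs. Cluster 7 had 529946 CPM, with 19.9% and 8.56%. The class value thus cannot stand for all neutrophil-like cells. The part of neutrophil RNA in the monocyte/macrophage-like level was not tested. In the 528, 288 and 259 monocyte/macrophage-like cells with under 5% of neutrophil-marker UMIs, Cxcr2 stood at 27.0, 20.9 and 5.84 CPM. The last lay at the level in erythroid and B-lineage cells. This restriction was an alternative added after the data were seen. Scratch-positive was then 1.29-fold (0.963 to 1.75) above scratch-negative, a turn of direction. Cxcl2 in these cells stood at 3779, 2094 and 205 CPM, close to the whole class.

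**Figure D5:**
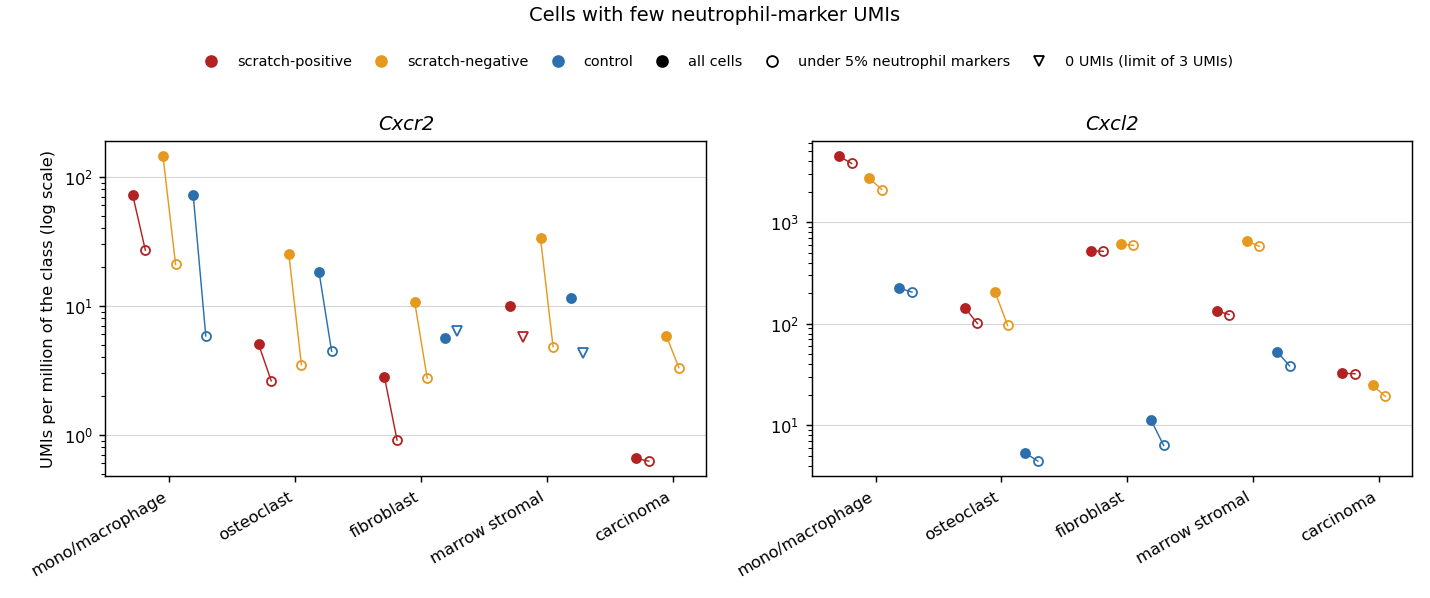
Levels of Cxcr2 and Cxcl2 (CPM, log axis) in classes named by likeness, for all cells (filled) and for cells with under 5% of UMIs from neutrophil markers (open), in the scratch-positive, scratch-negative and control libraries. In monocyte/macrophage-like cells Cxcr2 in scratch-negative is 145 CPM over all cells and 20.9 CPM in the restricted ones, whereas Cxcl2 is 2698 and 2094 CPM.

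In fibroblast-like and carcinoma-like cells Cxcr2 was near or below the free RNA level. It stood at 2.80 CPM in scratch-positive, 10.7 in scratch-negative and 5.63 in control fibroblast-like cells, and at 0.656 CPM in scratch-positive and 5.85 in scratch-negative carcinoma-like cells. Marrow stromal-like cells had 33.4 CPM in scratch-negative and 11.4 in control, the last from 9 UMIs, a called ratio of 2.92 (1.45 to 6.66). Over 11 alternatives the ratio ran from 1.77 to 6.42. The call was lost under several, among them a stricter mitochondrial limit, other gene minimums and no doublet removal. Among marrow stromal-like cells with under 5% of neutrophil-marker UMIs the 2 libraries had 4.81 CPM and 0 UMIs. T-like cells had 66.0 CPM in scratch-positive (8 UMIs in 18 cells), 5.99 in scratch-negative (3 UMIs in 73 cells) and 20.5 in control (16 UMIs in 105 cells), of which the first and last lay above the free RNA level. Their cells with under 5% of neutrophil-marker UMIs had 0 UMIs in both tumour libraries and 3.06 CPM, from 2 UMIs, in control. Osteoclast-like cells had 5.03, 25.2 and 18.2 CPM, and 2.62, 3.49 and 4.45 CPM in such restricted cells. Their ratio of scratch-positive to scratch-negative was called lower over all cells. In the restricted cells it was 0.750 (0.376 to 1.70) and was not called.

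Ordered by level over the named classes with at least 50 cells in a library, Cxcl1 in scratch-positive ran from fibroblast-like through carcinoma-like to monocyte/macrophage-like and neutrophil-like cells, 36.8 CPM. The intervals of these neighbours did not overlap, while those of neutrophil-like and NK-like cells, 31.5 CPM, did. Among smaller classes, the 33 marrow stromal-like cells lay between fibroblast-like and carcinoma-like cells, and the 8 meningeal-like cells had 71.2 CPM (23.1 to 166) from 5 UMIs, which overlapped the levels of both myeloid classes. In scratch-negative, carcinoma-like cells stood above marrow stromal-like ones. Cxcl2 led in neutrophil-like cells in scratch-positive and in monocyte/macrophage-like cells in scratch-negative and control, and the fibroblast-like and progenitor-like levels of scratch-positive overlapped. For Cxcl3 the intervals of the neutrophil-like and monocyte/macrophage-like levels overlapped in scratch-positive and control and not in scratch-negative. Fibroblast-like cells led for Cxcl5 in both tumour libraries and marrow stromal-like cells in control. Cxcr2 had the same first and second class, neutrophil-like and monocyte/macrophage-like, in all 3.

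The genes most like each member were sought over 27 units, each a class in a library with at least 50 cells, among 12070 genes. Units of a library share its depth and free RNA, so these correlations of log2(CPM + 1) are descriptions. For Cxcl1 they were Timp1 (r = 0.956), Pcolce (0.937), Plat (0.930), Fscn1 (0.924) and Ecm1 (0.917), and r with Cxcl5 was 0.857 and with Cxcl2 0.392. Cxcl2 was closest to Cxcl3 (0.919), then Ifitm1 (0.869) and Il1a (0.861). After Cxcl2, Cxcl3 was closest to Il1a (0.847) and Ifitm1 (0.841). For Cxcl5 the nearest were Igfbp3 (0.965), Apol9a (0.949) and Steap2 (0.941), and for Ppbp Baiap2l1 (0.921), Spink2 (0.914) and Cda (0.881). Cxcr2 was nearest to Fpr2 (0.986), Trem1 (0.981) and Clec4e (0.970), of which Trem1 and Clec4e are on the neutrophil marker list.

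A list of 9 inflammatory cytokines held the genes of interleukin-1, TNF and IL-17. In neutrophil-like cells 7 of 7 measured were higher in scratch-positive than in control (Il1a, Il1b, Tnf, Il6, Csf3, Csf2 and Lif) and 6 of 6 were higher in scratch-negative than in control, where 11.6% and 5.17% of all genes were higher. The median log2 ratio was 2.46 for the list and 0.05 for all genes in the first comparison, and 1.39 for the list and -0.11 for all genes in the second. Il1b, the gene of interleukin-1 beta, stood at 3010 CPM in scratch-positive, 1346 in scratch-negative and 605 in control neutrophil-like cells. Tnf stood at 146, 39.0 and 18.9 CPM and Il1a at 115, 26.1 and 0.884 CPM. Of 7 measured in monocyte/macrophage-like cells, 6 were higher in scratch-positive and 5 in scratch-negative than in control, none lower, where 13.5% and 5.02% of all genes were higher. Il17a had 0 UMIs in the neutrophil-like, monocyte/macrophage-like, fibroblast-like, marrow stromal-like and carcinoma-like cells of all 3 libraries.

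Between the tumour libraries, fibroblast-like and neutrophil-like cells gave calls in opposite directions. Of 7 measured cytokines of that list in fibroblast-like cells, 0 were higher and 5 lower in scratch-positive than in scratch-negative (Tnf, Il6, Csf3, Csf2 and Lif), with a median log2 ratio of -1.23 against 0.01 for all genes, whereas in neutrophil-like cells 5 were higher and 1, Il6, lower. Of all genes, 4.61% were higher and 11% lower in the first class and 8.99% higher and 1.15% lower in the second. Il6 stood at 54.2 CPM in scratch-positive and 142 in scratch-negative fibroblast-like cells. That difference between the classes was not tested. Il1b relative to Cxcl2 also differed: there were 1.80 Cxcl2 UMIs per Il1b UMI in scratch-positive, 1.48 in scratch-negative and 0.255 in control neutrophil-like cells, and 0.957, 1.21 and 0.205 in monocyte/macrophage-like cells. Cxcl2 thus exceeded control by more than Il1b did in both.

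Other lists gave the following counts, beside which 11.6% of all genes in neutrophil-like cells were higher and 3.62% lower in scratch-positive than in control, with a median log2 ratio of 0.05, and 5.17% higher and 1.79% lower in scratch-negative than in control, with a median of -0.11. Of 15 subunits and other targets of NF-kB, 7 were higher and 0 lower in scratch-positive than in control neutrophil-like cells, with a median log2 ratio of 0.82, and 4 were higher and 0 lower in scratch-negative, with a median of 0.40. Of 19 genes of signalling downstream of Cxcr2, neutrophil-like cells had 0 higher and 1 lower, Grk3, in scratch-positive and none called in scratch-negative. Of 13 other chemoattractant receptors, none was called in neutrophil-like cells in any of the 3 comparisons. Of 13 genes of early neutrophil maturation, 2 were higher in scratch-positive than in control neutrophil-like cells, Elane and Prtn3, and of 11 late ones only Il1b was called, higher in each comparison. Of 14 genes known to be induced by dissociation and stress, 7 were higher in scratch-positive than in control neutrophil-like cells, with a median log2 ratio of 0.96 (Jun, Junb, Egr1, Hspa1a, Hspa1b, Ier3 and Dusp1), and 4 in scratch-negative. The part of dissociation in the ligand levels of this class was not tested. In monocyte/macrophage-like cells the same list had 2 higher and 2 lower in scratch-positive and 2 higher in scratch-negative, and fibroblast-like cells had 0 higher and 1 lower in scratch-positive and 2 higher in scratch-negative, all against control. Over all genes, 13.5% were higher and 7.81% lower in the first of these comparisons, 5.02% and 5.77% in the second, 7.83% and 15.7% in the third and 5.21% and 12.0% in the fourth.

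Among 7 CXC chemokines that lack the ELR motif and do not bind CXCR2, 3 of 4 measured were higher in scratch-positive and 4 of 5 in scratch-negative than in control neutrophil-like cells, where 11.6% and 5.17% of all genes were higher. Cxcl12, which holds neutrophils and stem cells in the marrow through CXCR4, stood in marrow stromal-like cells at 1199 CPM in scratch-positive, 2443 in scratch-negative and 6665 in control. Cxcl12 is itself one of the 6 markers that named this class, so its level there is a description. In the class 4 of 6 genes of that list were lower in scratch-negative than in control (Cxcl9, Cxcl10, Cxcl12 and Cxcl13), where 7.20% of all genes were lower. The class held 33 scratch-positive, 169 scratch-negative and 79 control cells here, and 15, 69 and 61 under a stricter mitochondrial limit. The part of class make-up in these lower levels was not tested. The decoy receptors Ackr1 and Ackr2, which bind chemokines without signalling, stood at 0.959 and 0.080 CPM in scratch-positive, 2.41 and 0.504 in scratch-negative and 15 and 20.6 in control fibroblast-like cells. Cxcr1, a receptor closely related to Cxcr2, stood at 3.57 CPM in scratch-positive, 1.56 in scratch-negative and 0.564 in control neutrophil-like cells.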

How the data were processed

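The deposited files held raw UMI counts per gene and cell for 3 libraries (10x 3' v3.1 chemistry, per the labels' protocols; Cell Ranger 6.1.2, per the file headers; mm10, per the submitters' processing notes). The counts were deposited by the authors as filtered barcodes without normalization, so library depth is uncorrected. Cells with under 500 genes (335 in scratch-positive, 325 in scratch-negative and 887 in control) or over 10% mitochondrial UMIs were dropped. Doublets were removed by Scrublet rank at 0.8% per 1000 barcodes (723, 580 and 449 cells), because Scrublet's own threshold marked 6.65%, 0% and 0.080% and so had not worked in scratch-negative and control. Cells were clustered in scanpy 1.11.5 (2000 variable genes without the 6 members, 30 components, 15 neighbours, resolution 1.0), giving 27 clusters, of which 26 were named by at least 3 marker genes. Since 3' UMI counts count molecules, levels were not scaled by gene length. Counts were summed per class and library. Ratios used exact conditional binomial intervals (scipy 1.17.1), and the same rule was run over all genes to give background shares. Shares of cells used exact Clopper-Pearson intervals and were also computed with cells thinned to 3000 UMIs, leaving out shallower ones (399 scratch-positive, 449 scratch-negative and 302 control neutrophil-like cells, and 23, 39 and 20 monocyte/macrophage-like cells). The calling rule was tested on simulated data. Members, lists and marker genes were chosen with earlier results of these data known. From each list, genes were named by highest summed level or where few were called, and the genes most like a member by Pearson r with a minimum level of 10 CPM.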

Additional observations from a re-analysis of the deposited data

Results flagged for a closer look

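These genes were called in opposite directions in different classes for the same pair of libraries. The differences between classes were not tested, and each value is a log2 ratio from 1 library per group.

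For Cxcl5 in scratch-negative over control, the log2 ratio was at least 4.43 in erythroid cells and at least 4.24 in neutrophil-like cells, with 0 control UMIs set at the limit of 3, and 3.65 in progenitor-like cells, against 1 control UMI. The scratch-negative levels there were 5.41, 1.07 and 0.883 CPM, the last 2 below the free RNA level of 4.48 CPM, which erythroid cells help to define. In marrow stromal-like cells, where 1 control cell held 51.7% of the UMIs, it was -2.34. For Cxcl5 in scratch-positive over scratch-negative it was 1.39 in monocyte/macrophage-like cells, at levels of 3.20 and 1.22 CPM that lie below the free RNA level, -2.12 in carcinoma-like cells and -1.58 in fibroblast-like cells.

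For Cxcl1 in scratch-positive over scratch-negative it was 1.45 in neutrophil-like cells and -1.05 in carcinoma-like cells. For Cxcl3 in the same pair it was 3.54 in progenitor-like cells, 1.44 in neutrophil-like cells and -1.17 in carcinoma-like cells. Without doublet removal, when a histone-led cluster also took the progenitor name, the ratio in progenitor-like cells fell to 2.02-fold. The log2 ratio in neutrophil-like cells fell under 2-fold with clusters weighted equally, at 0.74, and at a minimum of 1000 genes a cell, at 0.88. In carcinoma-like cells Cxcl3 stood at 3.17 CPM in scratch-positive and 7.13 in scratch-negative. Its log2 ratio there was -0.43 with cells weighted equally, -0.11 without doublet removal and 0.53 with clusters weighted equally. That of Cxcl1 in carcinoma-like cells was -0.55 with clusters weighted equally.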

How the results depend on the processing

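No paired analysis was possible because each group had 1 library, and for the same reason no replicate could be left out. Of up to 103 calls and non-calls recomputed, between 89 and 100 were kept under each change of cell filter, doublet rule or scaling. Dropping the UMI minimum could not change any of the 103, because the same sums were compared again. Changing the doublet rule also redrew the clusters and their names. With clustering at resolution 0.5 and 2.0, 82 of 86 and 87 of 91 were kept, and with each cell and each cluster weighted equally 70 of 86 and 75 of 86. The 15 higher calls of scratch-positive over control became 9 with each cell weighted equally. The 23 of scratch-negative over control became 15 with each cell and 14 with each cluster weighted equally. The 1 lower call became 2 at 1000 or 200 genes a cell, 5% mitochondrial UMIs, without the top 50 genes in the totals or with clusters weighted equally, 3 with cells weighted equally and 0 at resolution 0.5. Equal weights used the fold alone and gave no value where a library had 0 UMIs, so such calls left these counts without being lost. In scratch-positive over control they were Cxcl5 in neutrophil-like and monocyte/macrophage-like cells and Cxcl1 in progenitor-like and NK-like cells. With cells weighted equally, both Ppbp calls in that pair were lost. In scratch-negative over control, Cxcl2 in erythroid cells was lost with cells and Cxcl1 in monocyte/macrophage-like cells with clusters weighted equally. The cause of the other changes was not tested.

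Cxcl3 in carcinoma-like cells, scratch-positive over scratch-negative, turned from a log2 ratio of -1.17 to 0.53 with clusters weighted equally. It was -0.43 with cells weighted equally and -0.11 without doublet removal, both under the 2-fold rule. Cxcr2 in monocyte/macrophage-like cells in that pair turned from -1.01 to 0.36 in cells under 5% neutrophil-marker UMIs, an alternative chosen after seeing the data. In neutrophil-like cells, scratch-positive over control stayed between 14.8-fold and 39.4-fold for Cxcl2, 70.1-fold and 178-fold for Cxcl3 and 0.98 and 1.11 for Cxcr2 over 13 alternatives. Cxcl2 between the tumour libraries there fell to a log2 ratio of 0.76, under 2-fold, with clusters weighted equally, and Cxcl1 in carcinoma-like cells to -0.55. Cxcl3 between the tumour libraries in neutrophil-like cells fell to 0.74 with clusters weighted equally and 0.88 at a minimum of 1000 genes a cell. Without doublet removal Cxcl2 in progenitor-like cells in that pair fell to 0.79 and Cxcl3 to 2.02-fold. A histone-led cluster also took the progenitor name in that setting, so the class was not the same cells. In fibroblast-like cells, Cxcl3 in scratch-positive over control fell to 0.98 without doublet removal. Leaving the top 50 genes out of the totals moved the median of all genes by -0.12 (neutrophil-like, scratch-positive over control) to -0.21 (monocyte/macrophage-like, between tumour libraries) and by 0.15 and 0.16 for scratch-negative over control in monocyte/macrophage-like and marrow stromal-like cells. In monocyte/macrophage-like cells Cxcl2 stayed between 8.61-fold and 31.7-fold above control in scratch-positive, while Cxcl1 in scratch-negative over control fell to a log2 ratio of 0.67 with clusters weighted equally. Depth limits Ppbp and Cxcl5 most, whose control counts were 23 and 31 UMIs.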
